A study of Mus musculus with 12 samples.

Results

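Lipid-laden monocyte-derived macrophages (LL-MDM) and microglia without lipid load (MG), both sorted from mouse brain tumours, were compared by ATAC-seq, a method in which the Tn5 transposase cuts open chromatin and so reports how accessible each stretch of DNA is. The comparison takes 6 of the 12 libraries of the series, 3 of LL-MDM and 3 of MG. The other 6 libraries, 3 of monocyte-derived macrophages without lipid load (MDM) and 3 of lipid-laden microglia (LL-MG), served as a reference that shares no library with it. All 12 came from brain tumours of mice whose genotype is labelled Ink4a/ArfKO, PDGFB. In this model PDGFB is enforced in Nestin-positive progenitor cells on an Ink4a/Arf-deficient background, so that every group, MG included, carries the deletion and comes from a tumour-bearing brain. The labels used here do not give the ages of the mice, the sorting gate or the measure of lipid load. LL-MDM stayed apart from MG at Sall1 (5.97-fold higher in MG), Ccl4 (2.38-fold) and Ctsd (1.497-fold), and at Col4a1 (3.71-fold higher in LL-MDM), Ms4a7 (2.75-fold) and Gpnmb (2.599-fold). Cd74, Cd63, Apoe, Srebf2 and Tgfbr1 matched within 1.5-fold. Of these loci, Ccl4, Ctsd and Col4a1 were named for their small p and Cd63, Srebf2 and Tgfbr1 for their match, so they are examples. Single regions of Cd63 went both ways.

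Groups were taken from the library names in the columns of the deposited count table. The sample titles name another group for each of the 6 libraries (0 of 6 agree). By title, the LL-MDM group would consist of libraries whose columns are named MG or LL-MG, and the MG group of libraries whose columns are named MDM or LL-MDM. Grouped in that way, 44 of the 46 gene loci named below that passed the test had the opposite sign, so every direction given here is that of the column names. The Sall1 locus, which is open in microglia and encodes their lineage transcription factor, held 71.3, 37.7 and 50.2 CPM (counts scaled to the same library total) in MG libraries 1, 2 and 3, 63.4, 84.9 and 64.5 in LL-MG and 0.829, 1.02 and 0.471 in MDM. The Itga4 locus, which encodes an integrin subunit of blood-derived macrophages, held 132, 107 and 112 CPM in MDM against 38.4, 48.5 and 38.9 in MG. The titles number 3 mice and, read as they stand, put LL-MDM 2 with LL-MDM 3 and MG 1 with MG 2 in the same mouse; since the titles conflict with the column names, which libraries share a mouse is not settled, and p-values measure the spread between libraries. The Cdkn2a regions (Ink4a/Arf) held counts in every library; the files do not show which part was deleted, so this checks nothing.

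Microglia settle in the brain from the yolk sac and keep their identity through transcription factors such as SALL1 and through TGF-beta signalling in the tissue. Monocyte-derived macrophages enter a tumour from the blood and take up residence beside them. Both can engulf lipid-rich debris such as myelin, store it in droplets, pass cholesterol on through the liver X receptors (LXR) and take on the lipid-associated programme marked by Gpnmb, Trem2 and Spp1. Chromatin that is open in one lineage and closed in the other can serve as a mark of lineage. The comparison of lipid-laden MDM with microglia shows at which loci these 2 groups can still be told apart. The groups differ in origin and in lipid load, and the part of each in a difference cannot be told apart here.

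Counts in the 117835 regions of the table summed to 1162969, 7390521 and 3050059 in LL-MDM libraries 1, 2 and 3 and to 2753453, 6872724 and 4399328 in MG. MG 2 and MG 3 stood apart from MG 1 at mast cell and basophil loci, where the summed level of 8 marker loci was 112, 405 and 250 CPM in MG 1, 2 and 3, against 92.5 to 112 in LL-MDM. Of the 5 markers tested, Gata2, Hdc, Ms4a2 and Cpa3 were called higher in MG and 1 was not called. Mcpt8, Fcer1a and Gata1 were not tested. Over all gene loci, 11.5% were called higher in MG and 13% higher in LL-MDM. In the same libraries the summed level of 22 microglia loci was lower, at 1492 CPM in MG 2 and 1733 in MG 3 against 2062 in MG 1, and spanned 1545 to 1631 in LL-MDM and 1481 to 1538 in MDM. Markers of progenitor and tumour cells summed to 49.998 to 67.7 CPM in LL-MDM, 78.9 to 116 in MG and 139 to 156 in LL-MG. Of these, 3 of 8 tested loci were called higher in MG (Sox2, Nes and Cspg4) and 0 higher in LL-MDM. Sox2 differed by -2.23 (not called without MG 2 and MG 3) and Cspg4 by -0.78. Slc1a3, a glutamate transporter of astrocytes, held 6.56, 12.8 and 12.2 CPM in LL-MDM, 58.4, 22.98 and 34.7 in MG and 9.54, 9.67 and 5.65 in MDM. Its difference was -1.66 ± 0.34 (SE; adjusted p = 0.0041), or -2.30 without MG 2 and MG 3. Of the 6 tested astrocyte loci, Slc1a3 and Aldh1l1 were called higher in MG and Slc1a2 higher in LL-MDM. The 8 listed astrocyte loci summed to 176 to 187 CPM in LL-MDM, 161 to 211 in MG and 245 to 256 in LL-MG. The part of these other cells in the results was not tested, and the counts over regions and gene lists are given again without MG 2 and MG 3. In sorted but pooled cells a lower level can come from fewer cells with an open locus or from less opening per cell, which cannot be told apart.

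Most regions could be placed neither apart nor together at this depth. Of 77737 regions tested, 10876 (14%) were more accessible in LL-MDM and 10025 (12.9%) in MG, which makes 26.9% called (edgeR quasi-likelihood test, Benjamini-Hochberg adjusted p under 0.05). The 95% interval of the log2 difference lay inside 1.5-fold in either direction for 10007 regions (12.9%), the measure used here for a locus that matched. The remaining 60.3% of regions were neither called nor inside that margin. Without MG 2 and MG 3 the calls numbered 6601 and 5238.

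Gene loci, for which counts were summed over all regions in the span of a protein-coding gene and the 5 kb on either side, were measured more precisely, and most of them matched. Of 15552 loci tested, 2019 (13%) were called higher in LL-MDM and 1788 (11.5%) in MG, 24.5% in all, and 753 of the called loci differed by at least 2-fold. The interval was inside 1.5-fold for 9369 (60.2%), of which 958 were also called, since a small difference can pass the test. The other 21.4% fell in neither class. Counts in regions shared with a neighbouring gene make up all of the P2ry12, Ccl3 and Tnf loci, 86.7% of Cd63 and 50.8% of Mmp14. Without MG 2 and MG 3, 1178 and 1241 loci were called, and without LL-MDM 2, the deepest LL-MDM library, 1361 and 1138. Leaving out MG 1 raised the calls to 5629 in all.

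Regions that differ between LL-MG and MDM, called lineage regions here, were chosen on those libraries alone and then read in LL-MDM and MG. LL-MG and MDM differ in lipid load as well as in lineage, and the 2 cannot be told apart in these regions. Of 18760 regions more open in LL-MG than in MDM (24.1% of those tested), 4907 (26.2%) were called higher in MG and 788 (4.20%) higher in LL-MDM, while 2094 (11.2%) lay within 1.5-fold, with a median log2 difference of -0.36. Of 20204 regions more open in MDM than in LL-MG (26% of those tested), 6781 (33.6%) were called higher in LL-MDM, 979 (4.85%) higher in MG and 1524 (7.54%) lay within 1.5-fold, with a median of 0.51. Over all regions tested the median was -0.04, 12.9% were called higher in MG, 14% higher in LL-MDM and 12.9% lay within 1.5-fold. Without MG 2 and MG 3, an alternative chosen after seeing the data, 4271 of 21603 regions on the microglia side were called higher in MG and 5038 of 23993 on the MDM side higher in LL-MDM. The microglia side thus leaned to MG and the MDM side to LL-MDM, and most regions of both sets were not called either way.

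Where LL-MG and MDM differed at least 4-fold, fewer regions matched. As background, 12.9% of all regions tested were called higher in MG and 14% higher in LL-MDM. Over all gene loci these shares were 11.5% and 13%. Among the 5644 such regions on the microglia side, 2722 (48.2%) were called higher in MG, 51 higher in LL-MDM, and 89 (1.58%) lay within 1.5-fold, with a median of -1.001. On the MDM side, 2956 of 6853 (43.1%) were called higher in LL-MDM, 213 higher in MG, and 11 (0.161%) lay within 1.5-fold, with a median of 1.01. Among gene loci, 23.9% were called more open in LL-MG than in MDM and 23.5% less open; with the same 4-fold criterion, 186 of 344 (54.1%) were called higher in MG and 5 matched, and 139 of 280 (49.6%) were called higher in LL-MDM and 1 matched. With MG 2 and MG 3 left out, 2521 of 6244 regions (40.4%) were called higher in MG on the microglia side and 2354 of 7553 (31.2%) higher in LL-MDM on the MDM side, and among gene loci 193 of 355 and 156 of 284. The median difference between LL-MDM and MG was smaller than that between MDM and LL-MG on both sides, at -1.001 against 2.88 for LL-MG minus MDM on the microglia side and 1.01 against -2.85 on the MDM side. These regions were chosen for their LL-MG and MDM levels, so the second value of each pair is fixed by the choice and is no test of the gap.

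**Figure D1:**
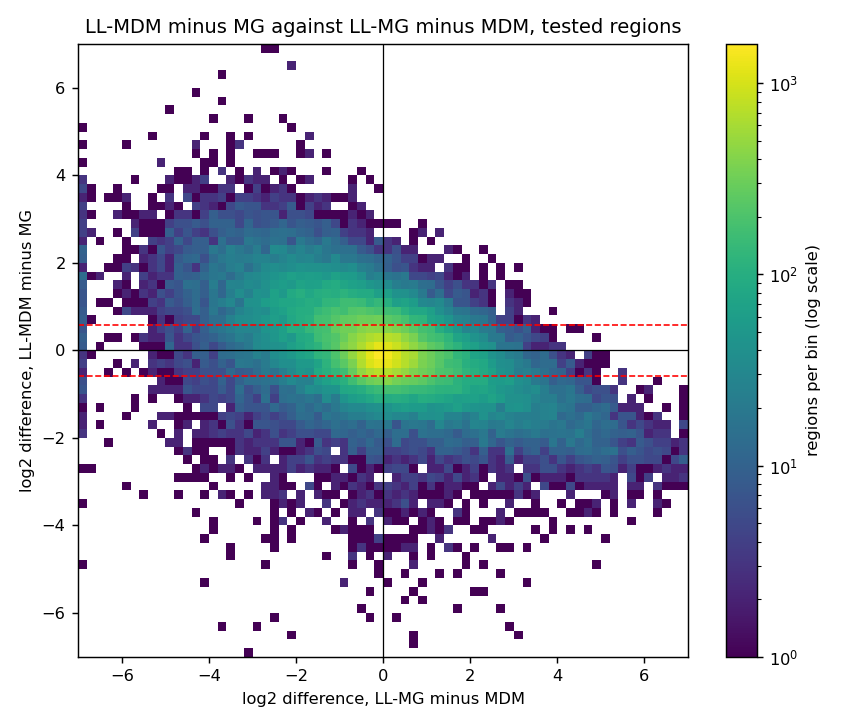
The log2 difference LL-MDM minus MG (vertical) is plotted against LL-MG minus MDM (horizontal) for the 77737 regions tested, with colour for the number of regions per bin on a log scale and dashed lines at 1.5-fold. Regions more open in LL-MG (right) lie below 0 on the vertical axis more often than above it (4907 called higher in MG, 788 in LL-MDM), and those more open in MDM (left) the reverse (6781 against 979).

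At the microglia end, the Sall1 locus stayed apart. SALL1 is a zinc-finger repressor that keeps microglia in their resident state, and its locus held 11.5, 9.41 and 5.93 CPM in LL-MDM 1, 2 and 3 against 71.3, 37.7 and 50.2 in MG. The groups did not overlap, as held for 35.1% of all gene loci and 34.2% of all regions, and the difference was -2.58 ± 0.26 (SE; adjusted p = 3.8e-06) on the log2 scale, or 5.97-fold higher in MG. All 4 tested regions of the locus were called higher in MG. The LL-MDM libraries lay above the MDM libraries, which held 0.829, 1.02 and 0.471 CPM. The related gene Sall3 gave the same order at a lower fold, with 7.38, 10.6 and 7.81 CPM in LL-MDM, 37.7, 18.4 and 24.4 in MG and 3.52, 3.63 and 2.67 in MDM. Its difference was -1.48 ± 0.24 (SE; adjusted p = 0.00016), and all 5 of its tested regions were called higher in MG.

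A further view came from 221 regions that were closed in MDM (mean under 0.5 CPM) and open in LL-MG (at least 10 CPM), chosen without the compared libraries. In LL-MDM they reached a median of 20.1% of the MG level, with an interquartile range of 16.04% to 28.4%. Of the 221, 210 were called higher in MG by edgeR and 0 higher in LL-MDM, against 12.9% and 14% of all regions tested. The highest reached 75.1% of the MG level. The median was 16.6% over 218 regions without MG 2 and MG 3. Their summed level as a share of the MG mean was 15.6%, 26.3% and 23.2% in LL-MDM 1, 2 and 3, from 441, 4715 and 1693 counts, and 127%, 75.5% and 97.6% in MG 1, 2 and 3. It was 1.99% to 3.07% in MDM and 142% to 153% in LL-MG. The low level in MDM and the high level in LL-MG are set by how the regions were chosen, so they are a scale and no comparison. Every LL-MDM library lay below every MG library.

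The lowest of these regions lay in Kcnma1, the gene of a calcium-activated potassium channel, which held 5 of the 221 regions. The region chr14:23800356-23800578 stood at 6.14% of the MG level in LL-MDM. Magi1, Dlgap2 and Npnt held 4 regions each and Sall1 held 3. At the other end, regions in Rap1gds1, Suclg2 and Zswim6 reached 66.7%, 66.4% and 63.9%. The highest, on chromosome 8 with no protein-coding gene within 50 kb, reached 75.1%. In all, 10 of the 221 exceeded 50% of the MG level.

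**Figure D2:**
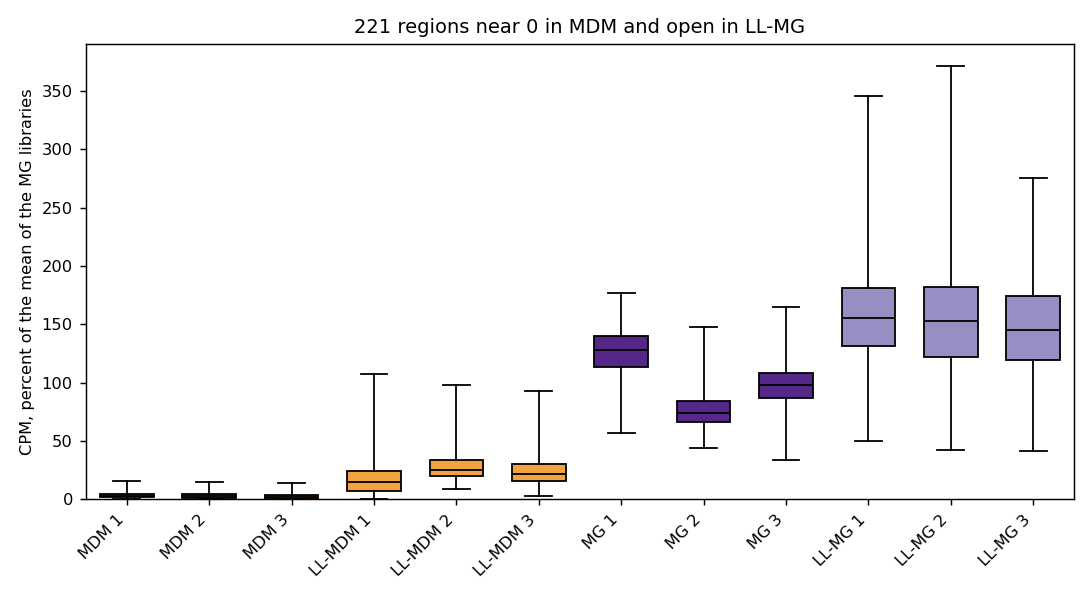
Each box gives the CPM of the 221 regions in 1 library as a percent of the mean of the MG libraries, with whiskers to the lowest and highest region. The LL-MDM libraries sit below MG, with summed levels of 15.6% to 26.3% against 75.5% to 127% in MG; the MDM level of 1.99% to 3.07% is low by the choice of regions.

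By the rule of the smallest p among regions with at least a 2-fold difference and no overlap between libraries, the leading regions higher in MG included those in Sall1, Nova1, Rasa3, Kcnma1 and Rbfox1 and near Cxxc5 and Chsy1. Several of these genes are better known from neurons, where NOVA1 and RBFOX1 control splicing. The Nova1 region (chr12:46819330-46819744) held 5.08, 4.79 and 6.54 CPM in LL-MDM and 34.7, 24.1 and 29.1 in MG, against 0.279, 0.2596 and 0.163 in MDM, and differed by -2.43 ± 0.22 (SE; adjusted p = 1.7e-09). Each LL-MDM library there was above each MDM library.

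The leading regions higher in LL-MDM lay in Itga9, Nedd4l, Itpr1, Pde7b, Alpk2, Plbd1 and Myo16 and near Cd83. The region in Itga9 (chr9:118658667-118659046), the gene of an integrin subunit that binds tenascin C and osteopontin, held 33.9, 28.6 and 36.3 CPM in LL-MDM against 0.709, 2.13 and 0.6996 in MG, a difference of 4.58 ± 0.29 (SE; adjusted p = 1.8e-12). MDM held 10.1, 11.8 and 11.9 CPM there, so this region was most open in the lipid-laden MDM. The region 10528 bp from Cd83 (chr13:43774138-43774584), a surface marker of activated antigen-presenting cells, held 36.4, 38.9 and 43.2 CPM in LL-MDM, 6.73, 2.95 and 3.498 in MG and 40.4, 38.4 and 44.3 in MDM, and differed by 3.30 ± 0.21 (SE; adjusted p = 2e-12). The region in Pde7b (chr10:20505361-20505904), which encodes a cyclic AMP phosphodiesterase, differed by 3.94 ± 0.28 (SE; adjusted p = 2e-11). The MDM libraries held as much as LL-MDM near Cd83 and less than LL-MDM in Itga9 and Pde7b.

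Promoters formed the smaller part of what differed. Of the regions called higher in LL-MDM, 3.96% overlapped a promoter window (250 bases before to 50 after a start) by any length. The share was 13.5% of all regions tested, 19.5% of those higher in MG and 46.3% of those that matched and were not called. The promoter regions named below overlap their window by at least 100 bp. Regions higher in LL-MDM also lay over 50 kb from any protein-coding gene more often, at 14.4% against 8.15% of all tested. The regions that matched were wider, with a median of 565 bp against 241 bp over all, and 93.9% of them had been called by the authors in all 4 groups, against 41.8%. Wider regions hold more counts and so have narrower intervals. The share of each library's counts that fell on promoter regions was 35.4% to 37.2% in LL-MDM and 36.9% to 38.8% in MG.

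Promoter sequences are shown for 6 genes, 4 that stayed apart and 2 that matched, because these are the starts at which the 2 cell types could or could not be told apart. F10 encodes coagulation factor X, which macrophages also make, and CD80 is the costimulatory ligand of CD28 and CTLA-4. MGLL is the lipase that cleaves monoacylglycerols, the last step in emptying a stored triglyceride. MERTK is a receptor for the clearance of dying cells and myelin, and CMKLR1 is the receptor of the chemoattractant chemerin. Each line gives the 250 bases before the RefSeq start (GRCm38.p6, the assembly of mm10), written 5′ to 3′ on the strand of the gene, with capitals for the matches to 8 short motifs: GAGGAAG (PU.1), TGANTCA (AP-1), a pair of GAAA with 2 bases between them (IRF), TTGCNNAA (C/EBP), TGTGGT (RUNX), CTA and TAG with 4 bases between them (MEF2), CACGTG (E-box) and GGGCGG (GC box), searched on both strands, with matches of different motifs allowed to overlap. The windows are chr8:89042863-89043112 (minus strand) for Sall1, chr6:88724454-88724703 (plus) for Mgll, chr8:13037058-13037307 (plus) for F10, chr16:38458683-38458932 (plus) for Cd80, chr2:128698665-128698914 (plus) for Mertk and chr5:113643604-113643853 (minus) for Cmklr1.
Sall1: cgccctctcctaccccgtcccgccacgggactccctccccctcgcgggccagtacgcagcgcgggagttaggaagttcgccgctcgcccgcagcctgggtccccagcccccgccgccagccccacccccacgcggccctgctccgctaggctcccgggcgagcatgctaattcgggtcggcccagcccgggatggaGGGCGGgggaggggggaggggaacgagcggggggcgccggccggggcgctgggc
Mgll: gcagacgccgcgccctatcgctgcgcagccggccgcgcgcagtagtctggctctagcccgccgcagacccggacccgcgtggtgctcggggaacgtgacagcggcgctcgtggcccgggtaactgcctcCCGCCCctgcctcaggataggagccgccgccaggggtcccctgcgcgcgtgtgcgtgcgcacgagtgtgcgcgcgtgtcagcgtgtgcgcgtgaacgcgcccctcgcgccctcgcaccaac
F10: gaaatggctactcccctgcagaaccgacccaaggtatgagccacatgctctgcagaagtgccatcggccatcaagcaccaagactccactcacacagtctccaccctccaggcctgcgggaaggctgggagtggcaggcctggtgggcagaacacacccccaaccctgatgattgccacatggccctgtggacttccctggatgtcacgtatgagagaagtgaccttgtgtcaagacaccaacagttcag
Cd80: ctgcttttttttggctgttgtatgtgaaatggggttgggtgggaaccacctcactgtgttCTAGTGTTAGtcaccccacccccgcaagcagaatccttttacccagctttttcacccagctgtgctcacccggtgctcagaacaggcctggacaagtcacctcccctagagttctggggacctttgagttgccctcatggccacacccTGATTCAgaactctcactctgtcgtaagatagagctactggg
Mertk: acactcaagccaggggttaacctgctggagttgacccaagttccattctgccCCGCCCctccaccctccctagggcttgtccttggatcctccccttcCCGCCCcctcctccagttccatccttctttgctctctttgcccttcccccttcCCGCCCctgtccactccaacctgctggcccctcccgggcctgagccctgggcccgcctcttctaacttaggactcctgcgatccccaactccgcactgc
Cmklr1: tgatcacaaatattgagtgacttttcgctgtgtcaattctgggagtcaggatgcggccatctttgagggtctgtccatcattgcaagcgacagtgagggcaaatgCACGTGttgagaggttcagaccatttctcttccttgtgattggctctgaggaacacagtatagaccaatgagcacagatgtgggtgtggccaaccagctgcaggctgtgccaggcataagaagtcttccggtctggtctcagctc

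The Sall1 and Mgll windows, both more accessible in MG, had a GC content of 78.4% and 74.8% and 1 GC box each. The promoter region of Sall1 (chr8:89042724-89043350) held 3.39, 5.06 and 2.94 CPM in LL-MDM, 45.4, 26.5 and 30.8 in MG and 0.419, 0.623 and 0.163 in MDM, a difference of -2.99 ± 0.25 (SE; adjusted p = 3.1e-10). The promoter region of Mgll held 9.31, 8.91 and 8.18 CPM in LL-MDM, 21.97, 19.7 and 18.2 in MG and 4.54, 5.04 and 4.901 in MDM, a difference of -1.18 ± 0.20 (SE; adjusted p = 5.2e-05). Both were graded, with every LL-MDM library between MDM and MG.

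The F10 and Cd80 windows had a lower GC content, 57.6% and 52.8%. The F10 window held none of the 8 motifs, and the Cd80 window held 1 AP-1 and 1 MEF2 match. The promoter region of F10 held 21.2, 19.7 and 24.5 CPM in LL-MDM against 1.77, 6.23 and 3.26 in MG, with 12.9, 13.4 and 20.1 in MDM and 3.89, 3.15 and 1.73 in LL-MG, and differed by 2.37 ± 0.29 (SE; adjusted p = 4.3e-07). That of Cd80 held 11.003, 12.2 and 14.4 CPM in LL-MDM, 3.54, 2.13 and 4.198 in MG and 28.1, 21.6 and 24.01 in MDM, and differed by 2.01 ± 0.27 (SE; adjusted p = 1.1e-06). LL-MDM was thus above MG at both, and at Cd80 below MDM.

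The Mertk and Cmklr1 starts were chosen as more open in LL-MG than in MDM with LL-MDM inside 1.5-fold of MG, so their values are a description. The promoter region of Mertk held 28.8, 35.1 and 34.7 CPM in LL-MDM and 45.7, 22.9 and 32.4 in MG, against 10.1, 13.5 and 17.6 in MDM, with a difference of 0.05 (95% interval -0.44 to 0.54) between LL-MDM and MG. The promoter region of Cmklr1, which covers 164 of the 250 bases shown, held 9.31, 11.3 and 11.1 CPM in LL-MDM, 14.9, 12.1 and 6.996 in MG and 3.77, 2.54 and 3.27 in MDM, with a difference of -0.03 (95% interval -0.54 to 0.47). The MG libraries spread widely at both, MG 1 being the highest. The other microglia-side promoters that the naming rule picked inside the margin were those of Olfml2b, Phyhd1, Layn, Efemp2, Pnpla3 and Bcar1, and on the MDM side those of Trim12a, Foxred2 and Flt3.

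Among 300-base promoter windows, AP-1 matches were present in 14.9% of the 442 over regions higher in LL-MDM, 4.46% of the 2307 over regions higher in MG and 4.33% of the 5959 that matched and were not called, against 5.49% of all 12011 over a tested region and 7.81% of the 32815 in the table. RUNX matches gave 21.7%, 11.8% and 10.9%, against 12.7% of those over a tested region. GC boxes ran the other way, with 45.5%, 69.4% and 72.8% against 66.8%, and E-boxes were found in 5.66%, 15.1% and 10.1% against 10.9%. The mean GC content was 55.4%, 64.98% and 62.5% against 61.9%. A match is a stretch of letters and was not tested as a binding site.

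The microglia identity loci split by gene. Of 22 tested, 6 were called higher in MG, 2 higher in LL-MDM and 9 lay within 1.5-fold, with a median of -0.21 against 0.01 over all gene loci. Over all loci 11.5% were called higher in MG, 13% higher in LL-MDM and 60.2% lay within 1.5-fold. Without MG 2 and MG 3, the libraries with the low microglia sums, 10 were called higher in MG and 1 higher in LL-MDM. Leaving out single libraries gave 2 (without LL-MDM 3 or MG 3) to 9 (without MG 2) higher in MG and 3 without LL-MDM 1 or LL-MDM 2. On the other side, 6 were called higher in LL-MDM without MG 1 and 1 without LL-MDM 3.

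P2ry12, the ADP receptor that guides microglial processes to injury, held 38.5, 45.8 and 47.8 CPM in LL-MDM against 99.9, 49.1 and 79.8 in MG. MG 2 was near the LL-MDM libraries, and the difference of -0.71 ± 0.23 (SE; adjusted p = 0.042) was not called without any 1 of the LL-MDM libraries or without MG 3; it was -1.14 without MG 2 and MG 3. Tgfbr1, the receptor subunit of the signal that maintains microglia, held 111, 110.2 and 104 CPM in LL-MDM and 124, 107 and 108 in MG, against 86.6, 87.3 and 89.3 in MDM. It matched MG, with a difference of -0.05 (95% interval -0.22 to 0.11), and every LL-MDM library was above every MDM library.

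Among general macrophage regulators Spi1 matched. Spi1, which encodes the lineage factor PU.1, differed by -0.10 (95% interval -0.35 to 0.15), and Csf1r, the receptor for the survival signals CSF1 and IL-34, by 0.19, which was neither called nor inside the margin. Spi1 was called at -0.32 without MG 2 and MG 3, and Csf1r at 0.37 without MG 1. Of 27 macrophage transcription factor loci, 17 lay within 1.5-fold, a share near the 60.2% of all loci, 7 were called higher in MG (11.5% of all loci) and 1 in LL-MDM (13% of all loci), with a median of -0.09; without MG 2 and MG 3, 11 and 2 were called, and without MG 1, 8 and 7. Smad7, the feedback inhibitor of TGF-beta signalling, held 136, 139.7 and 136 CPM in LL-MDM and 192, 204 and 178 in MG, a difference of -0.48 ± 0.08 (SE; adjusted p = 0.00026). Cebpd, a C/EBP factor of the acute response, differed by -0.70 ± 0.10 (SE; adjusted p = 4.2e-05), though all its regions are shared with a neighbouring gene.

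The monocyte-derived identity loci were mostly called higher in LL-MDM, against 13% of all gene loci (11.5% were called higher in MG). Of 21 tested, 13 were called higher in LL-MDM, 2 higher in MG and 4 matched, with a median of 0.58. Without MG 2 and MG 3, 11 were called higher in LL-MDM and 0 higher in MG, and without single libraries 10 to 14 and 0 to 2, with 0 higher in MG without LL-MDM 2 and 1 without LL-MDM 1, LL-MDM 3, MG 2 or MG 3. Itga4, the alpha-4 integrin subunit used to tell MDM from microglia, held 81.96, 77.3 and 79.9 CPM in LL-MDM and 38.4, 48.5 and 38.9 in MG, a difference of 0.89 ± 0.12 (SE; adjusted p = 1.5e-05). Ms4a7, a membrane protein of blood-derived brain macrophages, held 49.998, 51.6 and 37.2 CPM in LL-MDM and 16.6, 14.2 and 20.4 in MG, a difference of 1.46 ± 0.15 (SE; adjusted p = 4.8e-07), with all 4 of its tested regions called higher in LL-MDM. Cd44, the hyaluronan receptor, differed by 0.90 ± 0.09 (SE; adjusted p = 2.7e-07), and Fn1, fibronectin, by 1.02 ± 0.13 (SE; adjusted p = 9.8e-06). Groups did not overlap at any of these 4 loci, as at 35.1% of all gene loci, and at Itga4 the LL-MDM libraries lay below MDM.

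The 2 loci of this list called higher in MG were those of the chemokine receptors Ccr2 and Ccr1, which draw monocytes into tissue. Ccr2 held 6.56, 9.28 and 10.3 CPM in LL-MDM, 9.85, 40.5 and 27.1 in MG and 26.3, 23.2 and 21.8 in MDM. Ccr1 held 9.84, 9.02 and 8.12 CPM in LL-MDM and 6.46, 28.2 and 16.6 in MG. The high values were those of MG 2 and MG 3, the libraries in which mast cell and basophil loci were also high: the differences of -1.58 and -1.05 became -0.09 and 0.45 without them, and neither was then called. The call at Ccr2 was also lost without LL-MDM 2 and that at Ccr1 without any 1 of the 6 compared libraries except MG 1. Cpa3 (carboxypeptidase A of mast cells), Ms4a2 (the beta chain of the IgE receptor) and Gata2 (their transcription factor) had differences of -3.54, -2.40 and -1.78. Without MG 2 and MG 3, Ms4a2 stood at -0.77 and was not called, and Gata2 at -0.95.

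Class II antigen presentation loci, which show peptides to CD4 T cells, were partly matched. Over all gene loci, 13% were called higher in LL-MDM, 11.5% higher in MG and 60.2% lay within 1.5-fold. Of 18 loci on the list for MHC class II and antigen presentation, 9 were called higher in LL-MDM, 0 higher in MG and 8 lay within 1.5-fold, with a median of 0.42; without MG 2 and MG 3, 5 were called higher in LL-MDM. By edgeR, 1 of them had an unadjusted p under 0.05 in the direction of MG, and DESeq2 called 0. H2-Aa, a class II alpha chain, held 56.6, 50.7 and 44.03 CPM in LL-MDM, 29.9, 20.3 and 24.6 in MG and 196, 199 and 206 in MDM, so that LL-MDM was above MG by 1.04 ± 0.12 (SE; adjusted p = 3e-06) and far below MDM. H2-Eb1, a class II beta chain, differed by 0.67 ± 0.12 (SE; adjusted p = 0.00038). Ciita, the master regulator of class II genes, differed by 0.60 ± 0.14 (SE; adjusted p = 0.0038), which was not called without LL-MDM 2 (0.50) or without MG 2 and MG 3 (0.19).

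Cd74, the invariant chain that escorts class II molecules, matched MG closely. It held 84.4, 94.4 and 82.4 CPM in LL-MDM, 98.5, 82.6 and 85.9 in MG and 203, 200.1 and 218 in MDM. The difference from MG was -0.00 (95% interval -0.19 to 0.19), and 3 of its 6 tested regions lay within 1.5-fold while none was called. H2-Aa and Cd74 thus both stood far below MDM in LL-MDM, H2-Aa with a remaining difference from MG and Cd74 without a detected one.

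Loci of lipid uptake and storage were called higher in LL-MDM more often than in MG (13% and 11.5% over all gene loci). Of 21, 9 were called higher in LL-MDM, 1 higher in MG (Mgll) and 11 lay within 1.5-fold (60.2% of all loci), with a median of 0.28; without MG 2 and MG 3, 4 and 1 were called, and without LL-MDM 1, 5 were called higher in LL-MDM. Cd36, the fatty acid and oxidised lipoprotein receptor, held 96.7, 103 and 104 CPM in LL-MDM and 64.9, 42.03 and 61.3 in MG, a difference of 0.90 ± 0.12 (SE; adjusted p = 2.9e-05). Olr1, the lectin-like receptor for oxidised lipoprotein, held 43.4, 53.2 and 52.1 CPM in LL-MDM and 29.9, 34.3 and 25.4 in MG, a difference of 0.75 ± 0.12 (SE; adjusted p = 7.6e-05). The Cd36 locus was about as open in LL-MDM as in MDM (94.04, 91.7 and 94.2 CPM), and the Olr1 locus was less open in LL-MDM than in MDM (74.0003, 68.9 and 67.03 CPM). Summed over the 23 listed loci, LL-MG stood near LL-MDM, with 2076 to 2204 CPM against 2183 to 2227 in LL-MDM and 1727 to 2018 in MG.

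Plin2, which coats lipid droplets, held 66.4, 66.5 and 61.2 CPM in LL-MDM, 59.5, 38.9 and 52.9 in MG and 43.4, 42.5 and 43.3 in MDM. Its difference from MG of 0.40 ± 0.12 (SE; adjusted p = 0.023) was not called without LL-MDM 1, LL-MDM 2 or MG 2, and was 0.12 without MG 2 and MG 3. Lpl, the lipoprotein lipase, differed by 0.52 (95% interval -0.21 to 1.25) and was neither called nor inside the margin.

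The LXR and cholesterol efflux loci gave 7 of 18 called higher in LL-MDM, 1 higher in MG and 11 within 1.5-fold, with a median of 0.11; without MG 2 and MG 3, 4 and 3 were called, without LL-MDM 2, 4 and 1, and without MG 2, 5 and 2. The background over all gene loci was 13% called higher in LL-MDM and 11.5% higher in MG. Abca1, the transporter that loads cholesterol onto apolipoproteins, held 358, 398 and 389 CPM in LL-MDM, 275, 178 and 220.1 in MG and 226, 217 and 248 in MDM. The difference from MG was 0.79 ± 0.11 (SE; adjusted p = 5.5e-05) (0.49 without MG 2 and MG 3), and 13 of its 15 tested regions were called higher in LL-MDM. Nr1h3, which encodes the receptor LXR alpha, held 214, 209.8 and 201 CPM in LL-MDM and 145, 121 and 140.1 in MG and differed by 0.63 ± 0.09 (SE; adjusted p = 2e-05), or by 1.45 over the regions not shared with a neighbouring gene. At Abca1 every LL-MDM library exceeded every library of MDM and MG. Summed over the 19 listed loci, LL-MG stood near LL-MDM, with 2385 to 2561 CPM against 2384 to 2539 in LL-MDM and 2001 to 2306 in MG.

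The apolipoprotein cluster differed within itself. Apoc4 held 41.8, 54.4 and 45.3 CPM in LL-MDM and 22.8, 17.2 and 22.9 in MG, a difference of 1.24 ± 0.14 (SE; adjusted p = 2.5e-06). Apoe, the main lipid carrier of the brain, held 36.1, 46.4 and 46.5 CPM in LL-MDM, 45.2, 40.005 and 40.7 in MG and 25.6, 31.3 and 26.8 in MDM, and matched MG with a difference of 0.10 (95% interval -0.15 to 0.34). These 2 loci lie side by side and share regions with their neighbours, so that their counts are not independent. Mylip, the LXR target that degrades the LDL receptor, ran the other way, with 83.6, 87.2 and 79.6 CPM in LL-MDM and 108, 119 and 116 in MG, a difference of -0.45 ± 0.08 (SE; adjusted p = 0.00038).

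Most loci of sterol synthesis and of fatty acid oxidation lay within 1.5-fold. As background, 60.2% of all loci lay within 1.5-fold and 24.5% were called (13% higher in LL-MDM, 11.5% higher in MG). Of 19 sterol synthesis loci, 15 lay within 1.5-fold and 3 were called, all higher in LL-MDM (1 without MG 2 and MG 3, without LL-MDM 1 or without LL-MDM 3); without MG 1, 4 were called in each direction. Srebf2, the master regulator of sterol synthesis, held 107, 117 and 111 CPM in LL-MDM, 108, 112 and 104 in MG and 157, 155 and 163 in MDM, and matched MG with a difference of 0.06 (95% interval -0.11 to 0.22). Of 17 loci for PPAR signalling and fatty acid oxidation, 13 lay within 1.5-fold and 2 were called in each direction, with 1 to 4 higher in LL-MDM without single libraries (4 without MG 1, 1 without LL-MDM 2, LL-MDM 3 or MG 2) and 1 in each direction without MG 2 and MG 3. Hadha, the alpha subunit of the mitochondrial trifunctional protein, was called higher in MG by -0.73 ± 0.12 (SE; adjusted p = 0.00024), with all 5 tested regions in that direction, and by -1.52 over the regions not shared with a neighbour and -0.44 without MG 2 and MG 3.

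Among all gene loci, 13% were called higher in LL-MDM and 11.5% higher in MG. The loci shared by lipid-associated macrophages and by microglia in disease did not move as 1 group. Of 22, 5 were called higher in LL-MDM, 4 higher in MG and 9 matched, with a median of 0.11 (4 and 5 called without MG 2 and MG 3). Gpnmb, a glycoprotein of phagocytes loaded with lipid, held 66.4, 52.03 and 55.6 CPM in LL-MDM, 25.1, 20.5 and 20.4 in MG, 31.2, 29.7 and 24.6 in MDM and 28.1, 25.6 and 22.8 in LL-MG. The LL-MDM libraries were above all 9 others, and the difference from MG was 1.38 ± 0.14 (SE; adjusted p = 3.4e-07). Clec7a, the receptor dectin-1, differed by 1.24 ± 0.15 (SE; adjusted p = 4.9e-06). Spp1, osteopontin, differed by 0.62 ± 0.17 (SE; adjusted p = 0.0099), and by 0.60 and not past the test without MG 2 and MG 3.

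On the MG side of this list stood Ctsd, Csf1 and Cst7. Ctsd, the lysosomal protease cathepsin D, held 66.4, 72.8 and 59.3 CPM in LL-MDM, 116, 93.4 and 94.9 in MG and 37.1, 36.7 and 33.1 in MDM, a difference of -0.58 ± 0.11 (SE; adjusted p = 0.00039), with every LL-MDM library between MDM and MG. Csf1, the growth factor of macrophages, held 53.3, 53.9 and 53.1 CPM in LL-MDM and 76.1, 103 and 74.8 in MG, a difference of -0.68 ± 0.11 (SE; adjusted p = 0.00018). Cst7, a cysteine protease inhibitor, held 18.03, 21.6 and 21.9 CPM in LL-MDM and 31.6, 62.7 and 39.5 in MG, with MG 2 the highest, and its difference of -1.13 ± 0.20 (SE; adjusted p = 0.00044) became -0.58 without MG 2 and MG 3.

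Cd63, a tetraspanin of late endosomes, matched MG. It held 68.9, 74.9 and 77.7 CPM in LL-MDM, 73.4, 70.3 and 80.02 in MG and 43.4, 41.7 and 41.8 in MDM, a difference of 0.00 (95% interval -0.17 to 0.18), while single regions of the locus went both ways (1 called higher in LL-MDM and 3 higher in MG of 8). Trem2, the lipid-sensing receptor of microglia, held 63.9, 69.3 and 79.3 CPM in LL-MDM and 65.6, 40.3 and 66.4 in MG. It differed by 0.36 (95% interval -0.07 to 0.78), neither called nor inside the margin. As background for the lysosome list, 60.2% of all loci lay within 1.5-fold, 13% were called higher in LL-MDM and 11.5% higher in MG. Of 24 lysosome and autophagy loci, 18 lay within 1.5-fold, 2 were called higher in LL-MDM and 3 higher in MG, with a median of 0.10; without MG 2 and MG 3, 0 and 5 were called, without MG 1, 7 were called higher in LL-MDM, and without MG 2, 6 higher in MG.

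**Figure D3:**
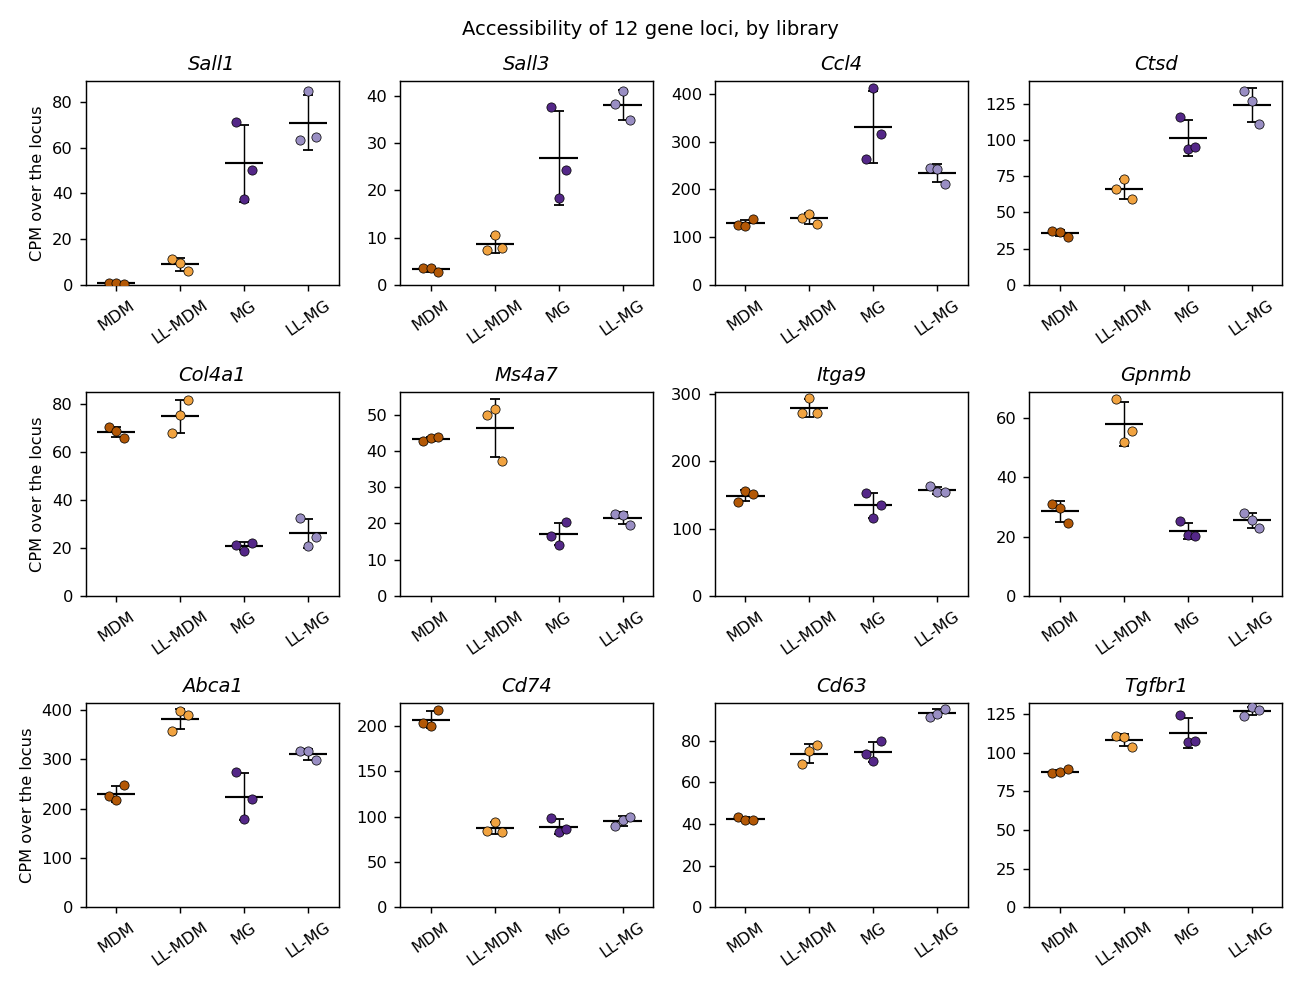
Each panel gives the CPM of 1 gene locus in the 12 libraries, by group, with points for libraries, a line for the group mean and whiskers for the SD (n = 3). LL-MDM lies between MDM and MG at Sall1, Sall3 and Ctsd, at or above MDM and over MG at Col4a1, Itga9, Gpnmb and Abca1, and beside MG at Cd74, Cd63 and Tgfbr1.

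Across all gene loci, 11.5% were called higher in MG and 13% higher in LL-MDM. Of 20 inflammatory and NF-kB loci, 5 were called higher in MG, 0 higher in LL-MDM and 12 matched, as did 60.2% of all loci. Their median was -0.05. Leaving out libraries added calls higher in LL-MDM, 2 without MG 2 and MG 3 (with 5 higher in MG), 4 without MG 1 and 1 without MG 2. By edgeR, 1 locus had an unadjusted p under 0.05 in the direction of LL-MDM, and DESeq2 called 0. Ccl4, a chemokine that attracts monocytes and T cells, held 141, 149 and 127 CPM in LL-MDM, 263, 412 and 315 in MG and 125, 124 and 137 in MDM, a difference of -1.25 ± 0.13 (SE; adjusted p = 5.6e-06), and 8 of its 9 tested regions were called higher in MG. Its neighbour Ccl3 differed by -0.88 ± 0.13 (SE; adjusted p = 0.00021), and Tnf, the cytokine tumour necrosis factor, by -0.44 ± 0.09 (SE; adjusted p = 0.0016). At Ccl4 the LL-MDM libraries lay with MDM, and MG and LL-MG lay above both.

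Interferon response loci were called higher in LL-MDM in 4 of 16 cases and higher in MG in 0, with 9 inside the margin and a median of 0.21 (1 and 0 called without MG 2 and MG 3, 7 and 0 without MG 1). The shares called over all gene loci were 13% higher in LL-MDM and 11.5% higher in MG. No locus of the interferon list was higher in MG at an unadjusted edgeR p under 0.05 (0 of 16), and DESeq2 called 0. Rsad2, the antiviral enzyme viperin, held 60.7, 57.5 and 55.9 CPM in LL-MDM and 34.99, 36.8 and 36.97 in MG, a difference of 0.66 ± 0.10 (SE; adjusted p = 5.1e-05). The groups did not overlap there, as at 35.1% of all gene loci.

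Immunosuppression and repair loci stayed on the MDM side (over all gene loci, 13% were called higher in LL-MDM and 11.5% higher in MG). Of 16, 11 were called higher in LL-MDM, 0 higher in MG and 5 matched, with a median of 0.63 (9 and 0 called without MG 2 and MG 3, 11 and 2 without MG 1). In the direction of MG, 0 had an unadjusted edgeR p under 0.05 and DESeq2 called 0. Il10, the anti-inflammatory cytokine, held 113, 98.04 and 103 CPM in LL-MDM and 53.7, 49.9 and 59.2 in MG, a difference of 0.93 ± 0.10 (SE; adjusted p = 8.3e-07), with 4 of 5 regions called. Mrc1, the mannose receptor of repair-type and border macrophages, held 38.5, 47.8 and 47.5 CPM in LL-MDM and 25.8, 24.2 and 24.4 in MG, a difference of 0.90 ± 0.13 (SE; adjusted p = 2.8e-05). Cd274, the checkpoint ligand PD-L1, held 148, 163 and 167 CPM in LL-MDM, 97.5, 119 and 104 in MG and 196, 191 and 194 in MDM, a difference of 0.58 ± 0.08 (SE; adjusted p = 4.1e-05), or 0.87 over the regions not shared with a neighbour. LL-MDM was above MG in every library at all 3 loci and below every MDM library at Mrc1 and Cd274. Over all gene loci, 35.1% had no overlap between LL-MDM and MG.

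Matrix and angiogenesis loci showed the same side, against 13% of all gene loci called higher in LL-MDM and 11.5% higher in MG. Of 19, 11 were called higher in LL-MDM, 1 higher in MG and 7 matched, with a median of 0.53 (10 and 1 called without MG 2 and MG 3, 10 and 2 without MG 2). Col4a1, a chain of basement membrane collagen, held 68.03, 75.4 and 81.8 CPM in LL-MDM, 21.4, 18.8 and 22.1 in MG and 70.5, 68.8 and 66.1 in MDM, a difference of 1.89 ± 0.12 (SE; adjusted p = 6.9e-10) or 3.71-fold. Mmp14, a membrane-bound matrix protease, held 118, 127 and 129 CPM in LL-MDM and 63.9, 42.4 and 44.5 in MG, a difference of 1.37 ± 0.11 (SE; adjusted p = 4e-08). Itga9 as a whole locus held 271, 293 and 271 CPM in LL-MDM, 153, 116 and 134 in MG and 139.7, 156 and 151 in MDM, a difference of 1.07 ± 0.09 (SE; adjusted p = 3.9e-08), above both.

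**Figure D4:**
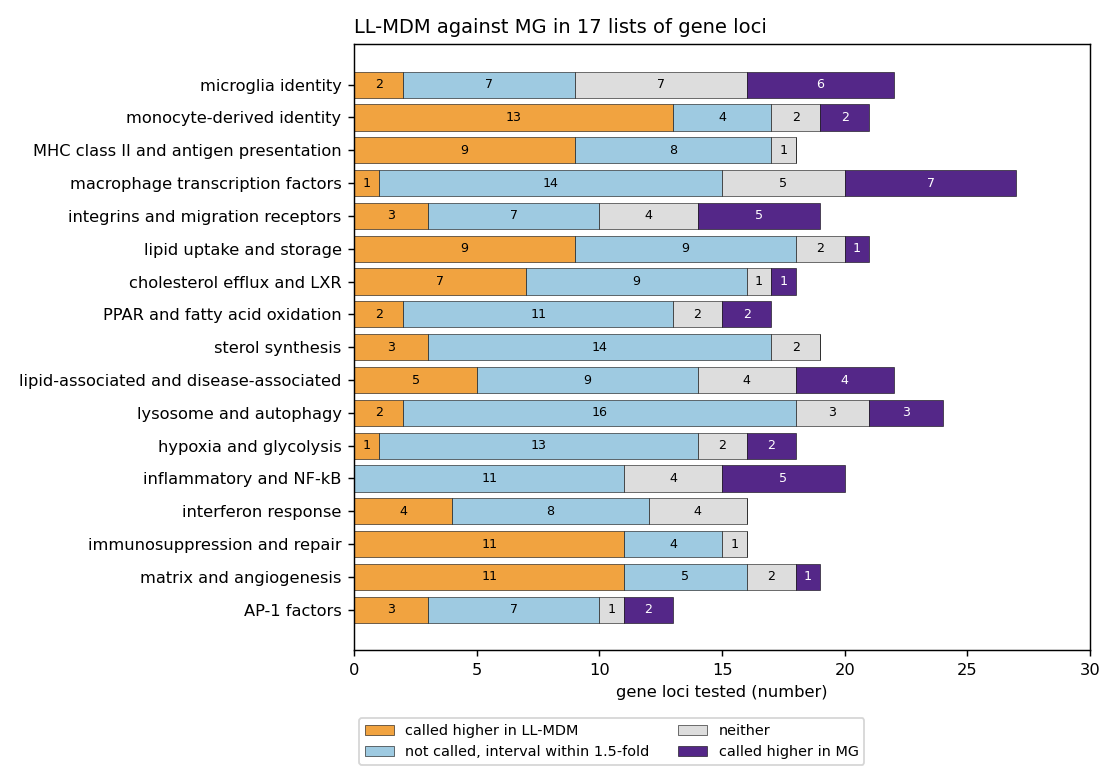
Bars give, for 17 lists of macrophage gene loci, how many tested loci were called higher in LL-MDM, called higher in MG, inside 1.5-fold and not called, or neither. The lists of monocyte-derived identity (13 of 21), immunosuppression and repair (11 of 16) and matrix and angiogenesis (11 of 19) hold the most loci called higher in LL-MDM, against 13% of all loci tested.

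For the remaining lists the background is again 13% of all gene loci called higher in LL-MDM and 11.5% higher in MG. Integrins and migration receptors gave 3 loci higher in LL-MDM and 5 higher in MG of 19. Hypoxia and glycolysis loci gave 1 and 2 of 18, and AP-1 factors 3 and 2 of 13. These became 5 and 4, 3 and 1, and 0 and 1 without MG 2 and MG 3, and without LL-MDM 2 there were 0 AP-1 loci higher in LL-MDM. Among other cell types, border-associated macrophage markers gave 4 higher in LL-MDM and 0 in MG of 8 (3 and 0 without MG 2 and MG 3), and endothelial markers 2 and 0 of 5 (1 and 1). Neutrophil markers gave 3 and 1 of 5 (1 and 0), dendritic cell markers 2 and 1 of 9 (3 and 3), and T and NK cell markers 1 and 1 of 8 (1 and 1). Oligodendrocyte, neuron and B cell markers gave 1 locus higher in LL-MDM and 0 in MG each (1 and 1, 1 and 0, and 0 and 1).

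Some loci were mosaics in which single regions went against the sum. Tmem119, a surface protein used as a microglia marker, held more counts over its locus in LL-MDM (77.9, 66.4 and 67.8 CPM) than in MG (49.9, 35.3 and 45.8), a difference of 0.70 ± 0.12 (SE; adjusted p = 0.00032). The difference was 0.46 without MG 2 and MG 3, and -0.07 when counted over the gene span alone. Its called regions lay in the flank: a region 4784 bp from the gene (chr5:113805180-113805737) held 48.2, 31.8 and 40.6 CPM in LL-MDM and 12.05, 16.2 and 16.3 in MG, a difference of 1.35 ± 0.19 (SE; adjusted p = 2.4e-06). The region at the gene itself (chr5:113800296-113800593) differed by -0.25 (95% interval -0.65 to 0.15).

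Cx3cr1, the fractalkine receptor, held 142, 139 and 124 CPM in LL-MDM and 176, 151 and 157 in MG over the locus. Its difference of -0.26 ± 0.08 (SE; adjusted p = 0.03) was called and also inside the margin, became -0.39 without MG 2 and MG 3, and was not called without LL-MDM 2, LL-MDM 3, MG 1 or MG 3. Of its 9 tested regions 2 were called higher in MG and 1 matched. A region of the locus closed in MDM (chr9:120051748-120051828) held 0, 0.931 and 1.31 CPM in LL-MDM against 8.15, 3.28 and 6.296 in MG, a difference of -2.54 ± 0.46 (SE; adjusted p = 0.00012). Another region of the same locus (chr9:120054679-120055503) matched, with a difference of -0.21 (95% interval -0.45 to 0.03).

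At Trem2, 1 of 5 regions was called, and it was higher in MG. That region (chr17:48348588-48348743) held 0.846, 1.996 and 1.64 CPM in LL-MDM and 7.09, 6.23 and 10.96 in MG, a difference of -2.18 ± 0.37 (SE; adjusted p = 4e-05). At Gpnmb, 4 of 5 regions were called, all higher in LL-MDM. The one with the most uneven levels (chr6:49031224-49031526) held 9.31, 10.9 and 14.1 CPM in LL-MDM and 1.77, 0.983 and 0.933 in MG, a difference of 3.33 ± 0.33 (SE; adjusted p = 7.6e-09). Of the 25 regions tested in Itga9, 10 were called, all higher in LL-MDM, and 1 matched.

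**Figure D5:**
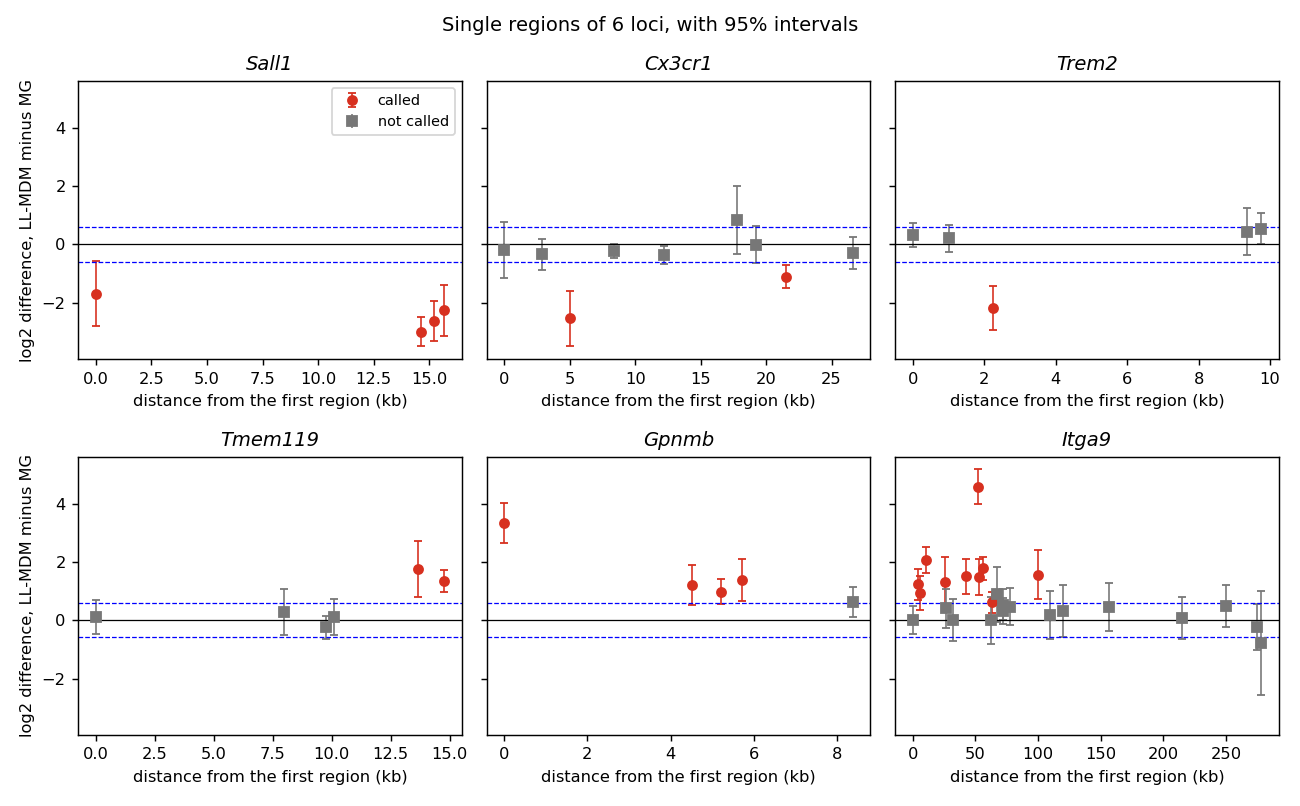
Points give the log2 difference LL-MDM minus MG of each tested region of 6 loci, with 95% intervals, along the distance from the first region of the locus in kb. All 4 regions of Sall1 lie below 0, the called regions of Gpnmb and Itga9 lie above 0, and Cx3cr1 and Trem2 combine regions near 0 with called ones below it.

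Among lineage regions that matched, those with the widest gap between LL-MG and MDM on the microglia side lay in Papss1, Osbpl11, Etv6, Man1c1, Mfsd11 and Cflar. The region in Man1c1 (chr4:134632144-134632613), a mannosidase of the Golgi, held 23.7, 33.4 and 26.8 CPM in LL-MDM and 43.2, 27.2 and 30.8 in MG, against 3.77, 5.35 and 3.92 in MDM, with a difference of -0.17 (95% interval -0.56 to 0.21). The region in Cflar (chr1:58744752-58745081), an inhibitor of caspase-8, held 19.5, 21.4 and 19.95 CPM in LL-MDM, 30.5, 21.1 and 20.99 in MG and 4.398, 4.21 and 3.27 in MDM, with a difference of -0.20 (95% interval -0.56 to 0.15). The low MDM level and the match with MG follow from how these regions were chosen. The LL-MG libraries were the highest at Cflar, with 48.005, 42.2 and 41.3 CPM.

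On the MDM side the matching regions lay in Runx1, Plp2, Ccnd3, Cdyl2 and Adgrl2 and near Stk17b. The region 6112 bp from Stk17b (chr1:53791349-53792198), a kinase of the death-associated family, held 11.003, 9.45 and 7.85 CPM in LL-MDM and 4.96, 12.3 and 7.695 in MG, against 46.5, 38.5 and 44.4 in MDM and 0.865, 1.797 and 1.73 in LL-MG, with a difference of 0.05 (95% interval -0.46 to 0.55). MG 2 was the highest of the MG libraries there. None of the 23 regions and promoters chosen as matching stayed inside the margin throughout when each compared library, and MG 2 with MG 3, was left out in turn. All 21 regions and promoters chosen as apart were called under every alternative with column-name groups that kept the 4 groups in the fit. The apart ones were chosen for a small p, and intervals tend to widen with fewer libraries. The 2 counts thus follow in part from the choice and do not compare stability.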

How the data were processed

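The authors deposited whole-number read counts for 12 ATAC-seq libraries in 117835 merged regions (mm10). The submitters' processing notes name deepTools 3.5.1, Picard 2.12.0, SAMtools 1.10 and BWA 0.7.17-r1188. Which program called the peaks, whether duplicates were removed and whether reads were shifted for Tn5 is not given in the sources used here. Groups follow the column names, and no column was left unmapped. Counts were tested with edgeR 4.0.16 (R 4.3.3): filterByExpr, TMM, 1 quasi-likelihood fit over the 4 groups, and the contrast LL-MDM minus MG, with Benjamini-Hochberg adjustment over all features. CPM use TMM-scaled totals. The interval inside 1.5-fold uses the quasi-likelihood standard error at 95% and is unadjusted. Gene spans and promoters are RefSeq GRCm38.p6; spans do not separate exons from introns. Alternatives used limma 3.58.1, DESeq2 1.42.0, other scalings, thinning and left-out libraries. The test was checked on simulated data. The compared groups, the 28 gene lists (373 of 410 genes tested) and the margins were chosen with earlier results of these data known. Named loci are a fixed set of lineage and lipid genes, up to 3 members per list and direction by p, the best matched member of each list, and the leading regions and promoters of each class, a few of which are not reported here; the Kcnma1 and Rap1gds1 group of closed regions and the regions within single loci were chosen after their values were seen.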

Additional observations from a re-analysis of the deposited data

How the results depend on the processing

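The counts of called loci depended on depth and on single libraries. Against 20901 regions and 3807 gene loci called, fitting the LL-MDM and MG libraries alone gave 11916 and 2282, thinning every library to the smallest total gave 5826 and 2085, leaving out MG 2 and MG 3 gave 11839 and 2419, and grouping by sample title gave 8243 and 1223. Leaving out single libraries gave 12261 (without LL-MDM 2) to 29946 (without MG 1) regions and 2499 to 5629 gene loci, from the same 2 libraries. Region calls split as 12424 higher in LL-MDM and 8182 higher in MG with region totals as the scaling, and as 11544 and 14460 with no filter on low counts, against 10876 and 10025. Of lineage regions, 4907 were called higher in MG on the microglia side and 6781 higher in LL-MDM on the MDM side: these became 1173 (of 6321) and 1831 (of 7215) after thinning and 2722 and 2956 with a 4-fold criterion, 4271 and 5038 without MG 2 and MG 3 (added after seeing the data), and 2569 to 5309 and 4577 to 8100 without single libraries. The closed regions kept a median of 17.8% to 24.96% without single libraries. Regions inside the margin numbered 33592 with a 2-fold margin, 4961 after thinning and 6472 to 11000 without single libraries; gene loci numbered 7903 to 9663. No label says that the column numbers pair libraries, but sets of 4 consecutive numbers hold 1 library of each group: with these sets as a replicate block, added after seeing the data, 20580 regions and 3753 gene loci were called, and of the named loci P2ry12 lost its call (adjusted p = 0.0548, edgeR). Libraries of 1 set did not deviate together, with correlations over gene loci of -0.072, -0.107 and 0.046 between LL-MDM and MG. Of the 55 gene loci with values, DESeq2, RLE size factors, region totals and no low-count filter kept direction and call for all, and limma-voom lost P2ry12 and Ccr1 and the gene span alone lost Plin2. Calls were lost at 6 loci with the LL-MDM and MG libraries alone, 4 after thinning, 7 without MG 2 and MG 3 (Ccr1 included, and Cpa3 not tested there), and 1 to 6 without single libraries. Apart from the titles, 2 turned direction: Ccr1 (0.45 without MG 2 and MG 3) and Tmem119 (-0.073 in the gene span only). Lpl, which was not called, stood at -0.18 in the span only. Grouped by title, the loci that turned to a higher level in the LL-MDM-titled libraries stood at log2 differences of Sall1 4.32, Sall3 2.63, P2ry12 0.99, Cx3cr1 0.41, Ccr1 0.14, Cebpd 0.48, Smad7 0.50, Mylip 0.45, Hadha 0.44, Cst7 0.91, Ctsd 1.13, Csf1 0.68, Ccl3 0.81, Ccl4 1.08, Tnf 0.54, Cpa3 1.77, Ms4a2 1.27, Gata2 1.57, Slc1a3 2.27, Sox2 3.21 and Cspg4 1.26. Those that turned the other way stood at Tmem119 -0.078, Itga4 -1.12, Ms4a7 -1.12, Cd44 -0.71, Fn1 -0.94, H2-Aa -1.97, H2-Eb1 -1.43, Ciita -0.46, Itga9 -0.64, Cd36 -0.64, Olr1 -1.004, Abca1 -0.24, Apoc4 -0.37, Nr1h3 -0.39, Gpnmb -1.04, Clec7a -1.32, Spp1 -0.77, Rsad2 -0.36, Il10 -0.68, Mrc1 -0.73, Cd274 -0.71, Col4a1 -1.76 and Mmp14 -1.03. The shallowest LL-MDM library has about 1 count at 1 CPM, which limits single regions more than loci.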
